A study of Mus musculus with 12 samples.

Results

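The genes examined here are 40 named components of the cell cycle and of DNA replication, among 23715 genes that the deposited transcripts add up to. Of the 40, 15 act in S phase, where DNA is copied, and 25 act in mitosis, where the copies are parted. They were picked by gene name, with earlier results of these data known, and all 40 were listed in the files. Libraries were made from total RNA of the calvaria, the vault of the skull, of newborn C57BL/6 mice, with 3 mice in each of 4 groups, while the study's methods speak of the parietal bone, taken on postnatal day 2. P-KO mice lacked *Med23*, which encodes a subunit of the Mediator complex, in mesenchymal stem cells, and P-Ctrl mice were their control littermates. The methods describe a floxed *Med23* allele that Prx1-Cre recombines, and this Cre is active in limb and part of the craniofacial mesenchyme, so blood, vessel and other cells of the bone keep the gene. R-Het mice carried 1 working allele of *Runx2*, the master transcription factor of osteoblasts, in all cells, and R-WT mice were their wild-type littermates. Each mutant group was set against its own littermates. The labels number the mice of a group as replicates without naming litters, and the p-values below measure the spread between these mice.

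A dividing cell copies its genome once and then parts the copies. Before S phase, CDC6 and CDT1 load the ring of MCM proteins onto replication origins, E-type cyclins start the phase, and the PCNA clamp holds the polymerases on DNA while ribonucleotide reductase and thymidylate synthase supply nucleotides. In mitosis, CDK1 with A- and B-type cyclins drives entry, aurora and polo-like kinases build the spindle, the BUB and TTK kinases hold the cell until every chromosome is attached, and the anaphase-promoting complex with CDC20 releases it. Transcription of the first set is classically tied to E2F factors at the G1/S boundary. The second set is classically tied to the DREAM and MuvB complexes with B-MYB and FOXM1, which act through CHR elements and CCAAT boxes. In growing bone, osteoprogenitors divide and mature osteoblasts and osteocytes leave the cycle, and marrow precursors also divide.

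The promoters of the genes that the results turn on are shown first, because the S phase and the mitotic genes are described apart. Each is the 130 bases before the RefSeq start of the gene in GRCm38.p6, read 5′ to 3′ on the strand of the gene. Capitals mark an E2F motif (TTTCCCGC, TTTGGCGC, TTTCGCGC or TTTGCCGC), a CHR motif (TTTGAA or TTCGAA) or a CCAAT box (CCAAT), read on either strand, and matches that touch each other are printed as 1 run. *Mcm6*, *Pcna* and *Rrm1* stand for the S phase genes, and *Cdk1*, *Top2a*, *Mki67* and *Ccnb1* for the mitotic genes.
Mcm6, chr1:128359706-128359835, strand minus: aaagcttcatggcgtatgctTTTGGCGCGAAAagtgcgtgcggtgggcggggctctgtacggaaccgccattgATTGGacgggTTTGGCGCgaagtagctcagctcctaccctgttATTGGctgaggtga
Pcna, chr2:132253181-132253310, strand minus: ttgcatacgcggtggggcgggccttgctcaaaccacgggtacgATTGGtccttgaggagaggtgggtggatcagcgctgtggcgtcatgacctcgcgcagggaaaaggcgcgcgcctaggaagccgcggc
Rrm1, chr7:102441565-102441694, strand plus: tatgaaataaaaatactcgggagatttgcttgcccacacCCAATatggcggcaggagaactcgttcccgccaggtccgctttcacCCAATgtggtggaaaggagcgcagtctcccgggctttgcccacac
Cdk1, chr10:69352913-69353042, strand minus: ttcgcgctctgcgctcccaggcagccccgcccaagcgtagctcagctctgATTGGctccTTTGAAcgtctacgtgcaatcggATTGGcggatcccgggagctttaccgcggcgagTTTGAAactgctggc
Top2a, chr11:99024190-99024319, strand minus: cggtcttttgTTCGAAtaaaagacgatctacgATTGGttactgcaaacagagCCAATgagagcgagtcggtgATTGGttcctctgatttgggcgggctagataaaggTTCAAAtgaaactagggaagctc
Mki67, chr7:135716380-135716509, strand minus: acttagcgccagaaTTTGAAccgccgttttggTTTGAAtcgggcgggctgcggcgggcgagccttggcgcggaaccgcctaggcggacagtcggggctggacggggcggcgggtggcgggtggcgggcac
Ccnb1, chr13:100786487-100786616, strand minus: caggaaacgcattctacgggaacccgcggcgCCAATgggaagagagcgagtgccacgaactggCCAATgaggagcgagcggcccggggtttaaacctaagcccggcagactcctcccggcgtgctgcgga

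In *Mcm6*, 2 E2F matches overlap at 110 and 106 bases before the start, and another lies at 47 bases. The *Cdk1* promoter held CHR matches at 71 and 15 bases before the start with a CCAAT box read backwards at 48 bases, and its E2F match began at 131 bases, just outside the bases shown. A RefSeq window of 250 bases before to 50 bases after the start was on hand for 12 of the 15 S phase genes and 19 of the 25 mitotic genes. *Gins2*, *Mcm4*, *Ccne2*, *Aurkb*, *Tpx2*, *Ccna2*, *Foxm1*, *Kif20a* and *Cdc25c* had none. An E2F motif stood in 6 of 12 S phase windows (50%; *Mcm3*, *Mcm5*, *Mcm6*, *Mcm7*, *Cdc6* and *Cdt1*), in 1 of 19 mitotic windows (5.26%; *Cdk1*) and in 704 of 27025 windows of all genes (2.6%). A CHR motif stood in 2 S phase windows (16.7%), in 15 mitotic windows (78.9%) and in 21.7% of all windows. CCAAT boxes were found in 8 S phase windows (66.7%), in 17 mitotic windows (89.5%) and in 41.1% of all windows. *Tyms*, *Ccne1*, *Birc5* and *Nusap1* held none of these letters. A match describes letters only, and whether a factor binds there was not measured.

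The values are FPKM, that is, sequenced fragments divided by transcript length and by the size of the library, and a level below is the sum over a gene's transcripts. The files hold no read counts, and from the step between the smallest values each mouse had a rough total of 7800000 to 11800000 fragments. The median mouse then had about 54 fragments for *Cdc25c*, 68 for *Cdc6* and 3031 for *Pcna*, so the lowest members carry the most counting error. Pearson r between log2 profiles, taken across genes, was 0.978 to 0.988 within a group. The label of the tissue held, since 14 osteoblast markers summed to between 21700 and 49980 FPKM per mouse. *Med23* was at 4.54 to 5.99 FPKM in P-Ctrl and 4.89 to 5.74 FPKM in P-KO mice (log2 fold change 0.00, SE 0.12, limma adjusted p = 0.997). *Runx2* was at 27.3 to 37.7 FPKM in R-WT and 30.4 to 35.7 FPKM in R-Het mice (0.09, SE 0.13, limma adjusted p = 0.796). Each gene's level thus did not tell the mutant libraries of its own cross from their controls. Without overlap, *Runx2* was at 30.5 to 38.0 FPKM in P-Ctrl and 23.7 to 28.7 FPKM in P-KO mice (-0.40, SE 0.12, limma adjusted p = 0.127). Neither *Med23* in P-KO nor *Runx2* in R-Het checks the labels, since a transcript can persist after part of it is deleted and cells outside the mesenchyme keep *Med23*. Directions below therefore refer to the libraries labelled P-KO and R-Het. *Xist*, which marks female cells, was at 37.8 to 49.1 FPKM in P-Ctrl 2, P-Ctrl 3 and R-WT 1 and at most 0.0663 FPKM in the other 9 mice, so all 6 mutant libraries were male and genotype and sex were partly confounded.

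One library stood apart for these genes. P-Ctrl 1, the male control of its cross, had the lowest value of 6 mice for 14 of the 15 S phase genes and for 24 of the 25 mitotic genes. The mean log2(FPKM + 1) of the S phase genes was 3.60 in P-Ctrl 1, 4.17 in P-Ctrl 2 and 4.09 in P-Ctrl 3, and that of the mitotic genes was 2.86, 3.40 and 3.47. The counts and medians of the *Med23* cross, and the fold changes of 12 named members, are therefore also given without this mouse, after the values of all 6 mice.

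**Figure D1:**
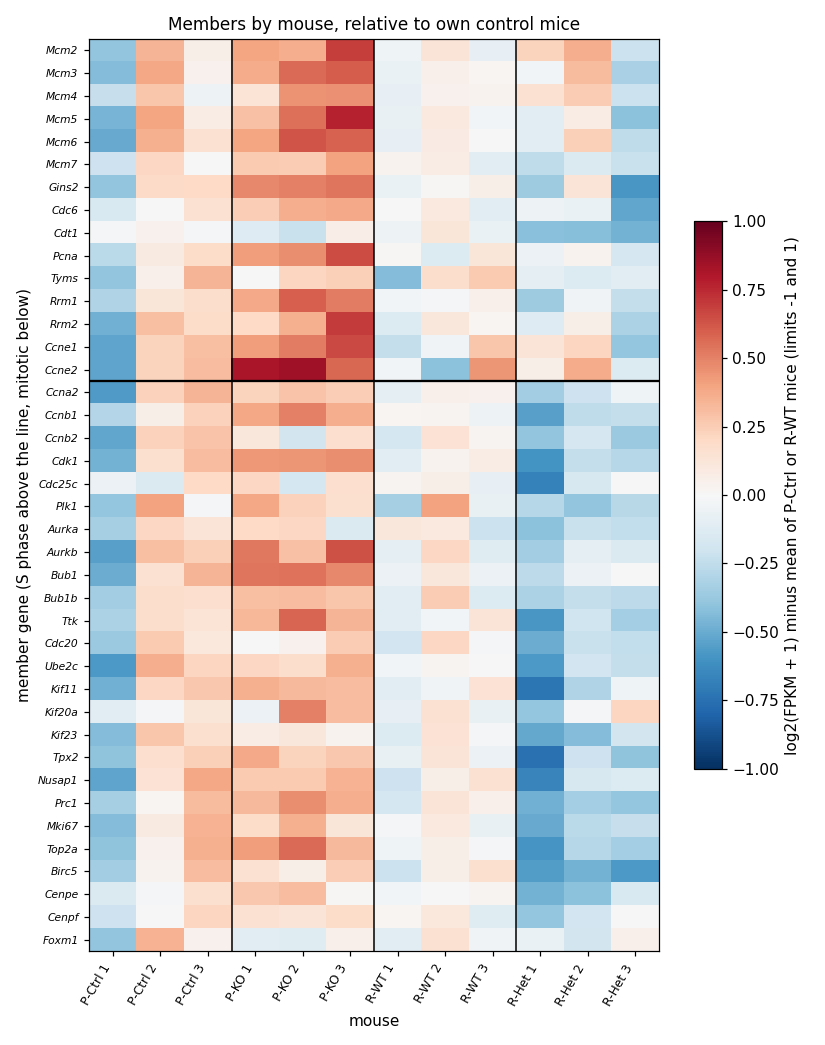
Log2(FPKM + 1) of each of the 40 members (rows, S phase genes above the line and mitotic genes below) in each of the 12 mice (columns), minus the mean of the control mice of the same cross; red is higher and blue is lower. The P-Ctrl 1 column is blue for nearly every gene, P-KO columns are mostly red in the S phase rows, and R-Het columns are mostly blue in the mitotic rows.

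In the calvaria of P-KO mice, 14 of the 15 S phase genes lay above the P-Ctrl mean, with a median log2 fold change of 0.50 (1.41-fold), against a median of 0.06 over the 13059 genes tested. No S phase gene passed limma at an adjusted p under 0.05, where 1.01% of all tested genes were higher and 0.559% lower, and adjusted p-values ran from 0.099 to 0.678. At an unadjusted p under 0.05, 11 of 15 were higher, against 15.7% of all tested genes, and an unmoderated unpaired test gave 3. All 3 P-KO mice lay above all 3 P-Ctrl mice for 9 of 15, against 19.6% of all tested genes. A log2 fold change above 0 was found for 61.3% of all genes. With every mouse scaled to the same FPKM sum, 44.4% of all genes lay above 0, the calls over all genes went from 132 higher and 73 lower to 41 higher and 65 lower, and the S phase median was 0.40 with 4 of 15 at an unadjusted p under 0.05. The share of 15.7% belongs to the main fit. Here and below, counts at an unadjusted p under other fits, scalings or sets of mice have no such share beside them.

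*Pcna*, the sliding clamp (chromosome 2, 132249286 to 132253180, GRCm38 as for all positions), had the smallest p of the S phase genes. Its FPKM was 147, 189 and 201 in P-Ctrl mice 1, 2 and 3 and 238, 245 and 279 in P-KO mice 1, 2 and 3. Every P-KO mouse lay above every control. The means were 179 ± 28.6 and 254 ± 21.9 FPKM (SD, n = 3 each), with a log2 fold change of 0.51 (SE 0.13, limma adjusted p = 0.099). The pseudogenes *Pcna-ps1* and *Pcna-ps2* are annotated elsewhere in the genome, and how the authors' program assigned reads shared with such copies is not given in the sources used here.

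Ribonucleotide reductase makes the deoxyribonucleotides for replication, with RRM1 as the large and RRM2 as the small subunit. *Rrm1* (chromosome 7, 102441695 to 102469771) was at 18.7, 25.3 and 26.4 FPKM in P-Ctrl mice and 30.5, 35.7 and 33.5 FPKM in P-KO mice. The groups did not overlap, and the log2 fold change was 0.50 (SE 0.14, limma adjusted p = 0.112). *Rrm2* (chromosome 12, 24708254 to 24714146) was at 13.4, 23.7 and 21.8 FPKM in P-Ctrl mice and 22.1, 24.7 and 31.6 FPKM in P-KO mice. Here P-KO 1 lay among the controls, and the log2 fold change of 0.42 (SE 0.22) had an adjusted p of 0.322. *Tyms*, thymidylate synthase, had a smaller difference of 0.15 (SE 0.18, adjusted p = 0.678).

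The 6 subunits of the MCM helicase had similar differences, between 0.31 (*Mcm7*, adjusted p = 0.203) and 0.54 (*Mcm6*, adjusted p = 0.207) on the log2 scale, and 5 of the 6 had an unadjusted p under 0.05. *Mcm2* (chromosome 6, 88883474 to 88898780) was at 8.26, 14.4 and 11.7 FPKM in P-Ctrl mice and 15.1, 14.7 and 18.7 FPKM in P-KO mice. All P-KO mice were above all controls, P-KO 2 by little, with a log2 fold change of 0.48 (SE 0.19, adjusted p = 0.211). The summed FPKM of the 6 subunits was 71.5 to 117.8 in P-Ctrl mice and 117.3 to 141.3 in P-KO mice.

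The E-type cyclins activate CDK2 at the entry to S phase, and *Ccne2* had the largest difference of the S phase genes. It (chromosome 4, 11190433 to 11204779) was at 3.90, 7.24 and 7.75 FPKM in P-Ctrl mice and 11.4, 11.7 and 9.51 FPKM in P-KO mice. The groups did not overlap, and the log2 fold change was 0.74 (SE 0.22, limma adjusted p = 0.124). *Ccne1* had 0.53 (SE 0.22, adjusted p = 0.223).

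Among the genes that license and fire origins, *Gins2*, a subunit of the GINS complex of the active helicase, had 0.51 (SE 0.16, adjusted p = 0.141) and *Cdc6* had 0.33 (SE 0.13, adjusted p = 0.218). *Cdt1*, the MCM loader, was the exception of the 15, with a log2 fold change of -0.10 (SE 0.10, adjusted p = 0.625).

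**Figure D2:**
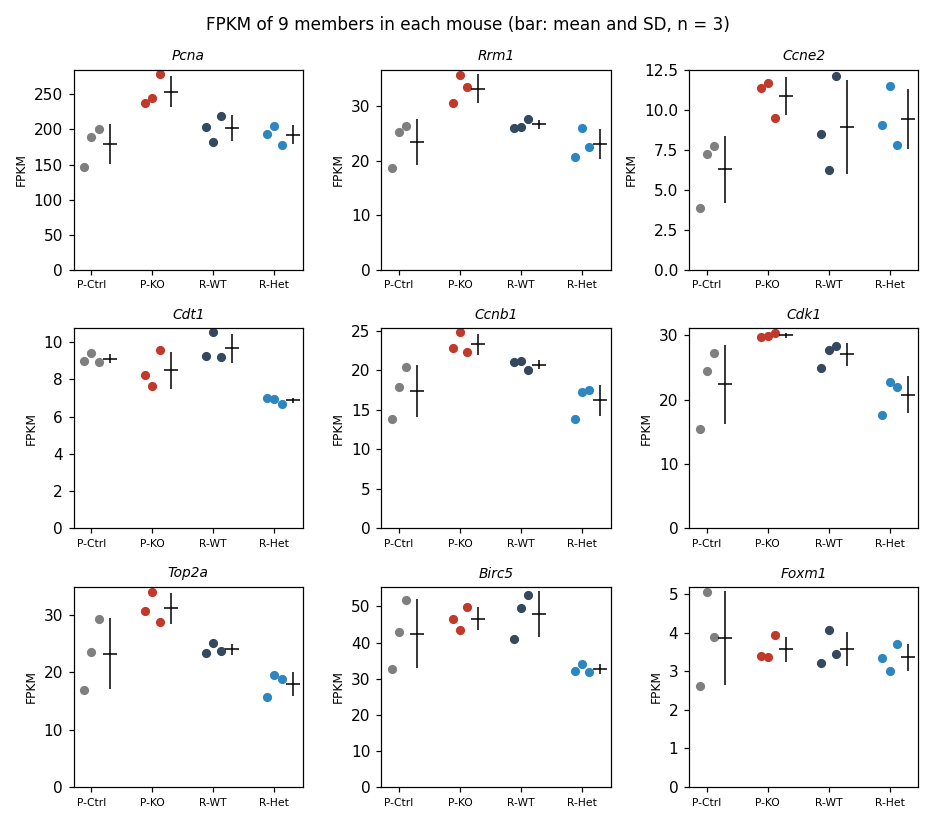
FPKM (vertical axes, each from 0) of 9 members in each mouse (points) by group, with the group mean and SD (black bars, n = 3). *Pcna*, *Rrm1*, *Ccne2*, *Ccnb1* and *Cdk1* show all P-KO points above all P-Ctrl points. *Rrm1*, *Cdt1*, *Ccnb1*, *Cdk1*, *Top2a* and *Birc5* show all R-Het points below all R-WT points.

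The mitotic genes of P-KO mice lay above the controls by less. A log2 fold change above 0 was found for 24 of 25, with a median of 0.25 (1.19-fold) and a range from -0.06 (*Foxm1*) to 0.52 (*Bub1*). Limma passed 0 of 25 at an adjusted p under 0.05, with 6 of 25 higher at an unadjusted p under 0.05 and 0 of 25 by the unmoderated test, and adjusted p-values ran from 0.152 to 0.951. The groups did not overlap for 7 of 25. In the main fit, the 6 and the 7 of 25 stand beside 15.7% and 19.6% of all tested genes. With every mouse scaled to the same FPKM sum, the median was 0.16, 20 of 25 lay above 0 and 0 had an unadjusted p under 0.05.

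*Ccnb1*, cyclin B1, which drives entry into mitosis with CDK1 (chromosome 13, 100778739 to 100786486), was at 13.8, 17.9 and 20.3 FPKM in P-Ctrl mice and 22.8, 24.8 and 22.3 FPKM in P-KO mice. Every P-KO mouse was above every control, with a log2 fold change of 0.42 (SE 0.14, limma adjusted p = 0.152). *Cdk1* itself (chromosome 10, 69335146 to 69352912) was at 15.4, 24.505 and 27.2 FPKM in P-Ctrl mice and 29.7, 29.9 and 30.4 FPKM in P-KO mice. The P-KO mice were nearly level while the controls were spread widely. Its log2 fold change was 0.44 (SE 0.19, adjusted p = 0.234). *Ccnb2*, cyclin B2, had 0.03 (SE 0.22), *Ccna2*, cyclin A2, had 0.25 (SE 0.22), and *Cdc25c*, the phosphatase that activates CDK1, had 0.07 (SE 0.15). *Ccnb1* and *Ccnb2* also have annotated pseudogenes.

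The kinases of the spindle checkpoint came next. *Ttk* (chromosome 9, 83834651 to 83872390) was at 2.52, 3.96 and 3.81 FPKM in P-Ctrl mice and 4.50, 5.56 and 4.54 FPKM in P-KO mice. *Bub1* (chromosome 2, 127800197 to 127831859) was at 2.75, 4.86 and 5.68 FPKM in P-Ctrl mice and 6.65, 6.69 and 6.34 FPKM in P-KO mice. In both genes the groups did not overlap, with log2 fold changes of 0.42 (SE 0.16, adjusted p = 0.198) for *Ttk* and 0.52 (SE 0.20, adjusted p = 0.21) for *Bub1*. *Bub1b*, another checkpoint kinase, had 0.30 (SE 0.15), *Plk1* had 0.26 (SE 0.19), *Aurkb* had 0.49 (SE 0.23) and *Aurka* had 0.09 (SE 0.17). For the anaphase-promoting complex, its activator *Cdc20* had 0.10 (SE 0.17) and its ubiquitin-conjugating enzyme *Ube2c* had 0.24 (SE 0.23).

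Of the chromosome proteins, *Top2a*, the topoisomerase that untangles sister chromatids (chromosome 11, 98992947 to 99024199), was at 17.0, 23.5 and 29.4 FPKM in P-Ctrl mice and 30.8, 34.1 and 28.8 FPKM in P-KO mice. P-Ctrl 3 lay above P-KO 3, and the log2 fold change was 0.44 (SE 0.18, adjusted p = 0.228). *Mki67*, which encodes the proliferation marker Ki-67 (chromosome 7, 135689784 to 135716450), was at 5.22, 7.98 and 9.70 FPKM in P-Ctrl mice and 8.55, 9.80 and 8.14 FPKM in P-KO mice. The groups overlapped, with 0.22 (SE 0.19, adjusted p = 0.553). *Birc5*, survivin, had 0.15 (SE 0.16) and *Foxm1*, the transcription factor of G2 and mitotic genes (chromosome 6, 128362994 to 128375886), had -0.06 (SE 0.19, adjusted p = 0.888) with 2.61, 5.05 and 3.90 FPKM in P-Ctrl mice and 3.40, 3.37 and 3.93 FPKM in P-KO mice. The 6 kinesins and spindle proteins ran from 0.07 (*Kif23*) to 0.38 (*Prc1*).

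Without P-Ctrl 1, the S phase median was 0.28, 13 of 15 lay above 0, and 5 of 15 had an unadjusted p under 0.05. The P-KO mice were still above both other controls for 9 of 15, against 27.7% of all genes with that mouse left out. The mitotic median was then 0.07, with 17 of 25 above 0, 3 at an unadjusted p under 0.05, 7 (against 27.7% of all genes, a like share) with P-KO mice above both controls and 2 (against 11.3%) with P-KO mice below both. The fold changes of single members were lower without it. The log2 fold change was 0.38 for *Pcna* (limma adjusted p = 0.148), 0.35 for *Rrm1* (0.154), 0.18 for *Rrm2* (0.574), 0.28 for *Mcm2* (0.34) and 0.48 for *Ccne2* (0.134). Among mitotic genes it was 0.27 for *Ccnb1* (limma adjusted p = 0.216), 0.21 for *Cdk1* (0.26), 0.26 for *Ttk* (0.325), 0.27 for *Bub1* (0.246), 0.24 for *Top2a* (0.363), 0.0011 for *Mki67* (0.997) and -0.26 for *Foxm1* (0.374). *Mki67* was then level with its controls. Since P-Ctrl 1 was the only male control of its cross, a comparison within males rests on 1 mouse. Without P-Ctrl 1, both remaining controls were female and all P-KO mice male. Genotype and sex cannot be told apart in those values. In a fit of 12 mice with a term for sex, added after the data were seen, the medians were 0.66 for S phase and 0.43 for mitotic genes. All mutant mice were male, so that term was set by the control mice alone. It cannot part sex from the low level of P-Ctrl 1. In R-WT, the mean log2 level of the S phase genes was 3.94 in the female and 4.05 and 4.09 in the males.

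Cell type markers also moved in this cross. The 14 osteoblast markers all had a log2 fold change below 0 in P-KO, with *Bglap* and *Bglap2*, the osteocalcin genes, past an adjusted p of 0.05 (0.0401 and 0.0327), and their summed FPKM was 47360 to 49980 in P-Ctrl and 21700 to 29940 in P-KO mice. The 10 skeletal muscle markers all had a log2 fold change above 0, of which 4 had an unadjusted p under 0.05 and 0 passed limma's adjusted test, with sums of 1379, 20.9 and 321 FPKM in P-Ctrl mice 1, 2 and 3 and 4179, 599 and 3287 FPKM in P-KO mice. The sum of P-Ctrl 1 was the highest of the controls, above that of P-KO 2 and below those of P-KO 1 and P-KO 3. Erythroid markers summed to 12690 to 17060 FPKM in P-Ctrl and 7248 to 11510 FPKM in P-KO mice, with 7 of 8 tested below 0, 3 at an unadjusted p under 0.05 and 0 past the adjusted test. Of 6 cartilage markers tested, 4 were below 0, all of them at an unadjusted p under 0.05, and *Col2a1* fell by 0.86 on the log2 scale (limma adjusted p = 0.0404), with list sums of 36.0 to 55.8 FPKM in P-Ctrl and 25.8 to 36.2 FPKM in P-KO mice. Neural markers lay the other way, with 6 of 7 tested above 0, 4 at an unadjusted p under 0.05, 4 without overlap and 0 past the adjusted test, and sums of 33.0 to 42.2 FPKM in P-Ctrl and 60.1 to 66.4 FPKM in P-KO mice. All 7 osteoclast markers were below 0, with 0 at an unadjusted p under 0.05, and P-Ctrl 1 stood apart with a sum of 8106 FPKM against 4532 and 5121 FPKM in the other controls and 4153 to 5255 FPKM in P-KO mice. Of the 6 neutrophil markers tested, 5 were below 0. So were 3 of 5 endothelial and 5 of 5 macrophage markers tested, with 0 past the adjusted test in either list. The 5 myeloid progenitor markers summed to 0.480 to 5.06 FPKM in P-Ctrl, highest in P-Ctrl 1, and 0.729 to 1.82 FPKM in P-KO mice. Only *Prtn3* of these was tested (log2 fold change 0.10, adjusted p = 0.884). Of all tested genes, 15.7% were higher in P-KO at an unadjusted p under 0.05 and 19.6% lay above the controls without overlap, and 61.3% had a log2 fold change above 0. No share lower at an unadjusted p is given here, so the counts of lower markers at that threshold have none beside them. The adjusted test passed 1.01% higher and 0.559% lower. The part of these cell types in the differences above was not tested. In bulk tissue, fewer cells of a type and less RNA per cell cannot be told apart.

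In the *Runx2* cross, all 25 mitotic genes had a log2 fold change below 0 in R-Het, with a median of -0.32 (0.801-fold) and a range from -0.53 to -0.06, against a median of 0.02 over all tested genes, 43.9% of which lay below 0. Limma passed 0 of 25 at an adjusted p under 0.05, where 1.49% of all tested genes were lower and 0.398% higher, and the adjusted p-values ran from 0.0568 to 0.894. At an unadjusted p under 0.05, 14 of 25 were lower, against 8.32% of all tested genes, and the unmoderated test gave 9. All R-Het mice lay below all R-WT mice for 14 of 25, against 10.4% of all tested genes.

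*Birc5*, which encodes survivin of the chromosomal passenger complex (chromosome 11, 117849237 to 117855743), had the largest difference. It was at 40.9, 49.7 and 53.3 FPKM in R-WT mice 1, 2 and 3 and 32.1, 34.1 and 31.7 FPKM in R-Het mice 1, 2 and 3. The groups did not overlap, and the R-WT mice were more widely spread than the R-Het mice. The means were 48.0 ± 6.37 and 32.7 ± 1.30 FPKM (SD, n = 3 each), and the log2 fold change was -0.53 (SE 0.11, limma adjusted p = 0.0568). With each mouse scaled to the same 75th percentile, this was the 1 mitotic gene that passed (adjusted p = 0.0472).

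*Top2a* was at 23.4, 25.2 and 23.7 FPKM in R-WT and 15.6, 19.5 and 18.8 FPKM in R-Het mice, and *Prc1*, which bundles the microtubules of the central spindle (chromosome 7, 80294445 to 80316259), was at 11.3, 14.3 and 13.5 FPKM in R-WT and 9.005, 10.03 and 9.72 FPKM in R-Het mice. Neither gene's groups overlapped. Their log2 fold changes were -0.41 (SE 0.10, limma adjusted p = 0.095) and -0.40 (SE 0.10, limma adjusted p = 0.107). *Mki67* was at 7.81, 8.54 and 7.49 FPKM in R-WT and 5.28, 6.40 and 6.61 FPKM in R-Het mice, also without overlap, with -0.34 (SE 0.11, adjusted p = 0.178). The centromere motor *Cenpe* had -0.35 (SE 0.13) and *Cenpf*, a protein of the outer kinetochore, -0.19 (SE 0.14).

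The cyclin-dependent kinase and its partners showed the same order of size. *Cdk1* was at 24.96, 27.7 and 28.4 FPKM in R-WT and 17.5, 22.8 and 22.0 FPKM in R-Het mice. *Ccnb1* was at 21.0, 21.1 and 19.98 FPKM in R-WT and 13.9, 17.2 and 17.4 FPKM in R-Het mice. Both were without overlap, with R-Het 1 the lowest mouse, and had log2 fold changes of -0.37 (SE 0.11, adjusted p = 0.171) and -0.34 (SE 0.10, adjusted p = 0.161). *Ccnb2* had -0.31 (SE 0.11), *Cdc25c* -0.28 (SE 0.18) and *Ccna2* -0.20 (SE 0.10).

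*Tpx2*, which activates aurora A on spindle microtubules, had -0.45 (SE 0.15, adjusted p = 0.186), and the kinesin *Kif23*, which acts in cytokinesis, had -0.38 (SE 0.12, adjusted p = 0.196). *Kif11*, the motor that keeps the spindle bipolar, had -0.36 (SE 0.17), and *Nusap1*, a spindle microtubule protein, -0.32 (SE 0.16). The remaining kinesin, *Kif20a*, had -0.06 (SE 0.16). Checkpoint and mitotic kinases ran from -0.37 (*Ttk*, SE 0.13) to -0.11 (*Bub1*, SE 0.11), with *Plk1* at -0.32 (SE 0.18), *Aurka* at -0.29 (SE 0.12), *Bub1b* at -0.27 (SE 0.12) and *Aurkb* at -0.19 (SE 0.12). *Cdc20* and *Ube2c* lay at -0.32 (SE 0.13) and -0.33 (SE 0.11). *Foxm1* was at 3.21, 4.06 and 3.44 FPKM in R-WT and 3.36, 3.01 and 3.71 FPKM in R-Het mice, which overlapped, with -0.07 (SE 0.12, adjusted p = 0.848).

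The S phase genes of R-Het mice lay near their controls as a group. A log2 fold change below 0 was found for 12 of 15, with a median of -0.11 (0.926-fold) and a range from -0.44 to 0.12. Limma passed 0 of 15 (adjusted p from 0.0558 to 0.982), 2 were lower at an unadjusted p under 0.05, also 2 by the unmoderated test, and the groups did not overlap, R-Het lower, for 3. Over all tested genes, 8.32% were lower at an unadjusted p under 0.05 and 10.4% did not overlap with R-Het lower. The 2 and 3 of 15 are few genes to set beside these shares. A log2 fold change below 0 was found for 43.9% of all tested genes, with a median of 0.02.

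The exception was again *Cdt1* (chromosome 8, 122568015 to 122573130), at 9.27, 10.6 and 9.20 FPKM in R-WT and 6.99, 6.93 and 6.69 FPKM in R-Het mice. The R-Het mice were close to each other and below every control, with a log2 fold change of -0.44 (SE 0.09, limma adjusted p = 0.0558). *Mcm7* (chromosome 5, 138164583 to 138172111) was at 24.6, 25.3 and 22.3 FPKM in R-WT and 20.02, 21.7 and 20.5 FPKM in R-Het mice, with -0.21 (SE 0.08, adjusted p = 0.296). *Rrm1* was at 26.1, 26.3 and 27.7 FPKM in R-WT and 20.7, 26.0 and 22.5 FPKM in R-Het mice, with -0.21 (SE 0.10, adjusted p = 0.372). R-Het 2 was level with the controls for *Rrm1*, so that its groups were parted by a narrow gap.

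For other S phase genes the groups overlapped. *Pcna* was at 203, 182 and 219 FPKM in R-WT and 193, 205 and 178 FPKM in R-Het mice (-0.07, SE 0.10). *Mcm2* was at 9.62, 10.985 and 9.38 FPKM in R-WT and 11.8, 13.1 and 8.44 FPKM in R-Het mice (0.12, SE 0.15), and *Rrm2* at 17.3, 20.9 and 19.5 FPKM in R-WT and 17.5, 20.001 and 15.2 FPKM in R-Het mice (-0.13, SE 0.12). The median of the 6 MCM genes was -0.03, *Ccne1* had -0.01 (SE 0.19) and *Ccne2*, at 8.49, 6.28 and 12.1 FPKM in R-WT and 9.06, 11.5 and 7.80 FPKM in R-Het mice, had 0.10 (SE 0.22).

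**Figure D3:**
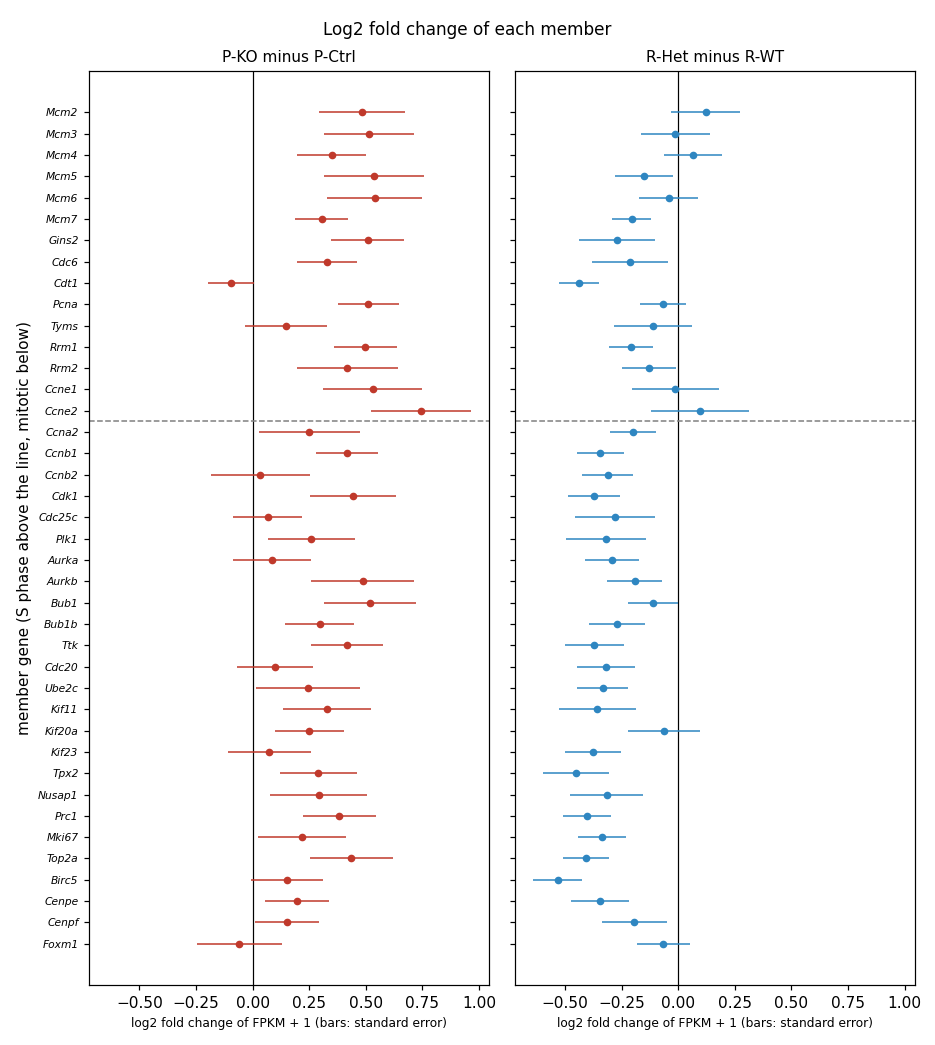
Log2 fold change of FPKM + 1 (points) with its standard error (bars) for each member, P-KO minus P-Ctrl on the left and R-Het minus R-WT on the right, S phase genes above the dashed line. The S phase genes sit to the right of 0 on the left side, except *Cdt1*, and the 25 mitotic genes all sit to the left of 0 on the right side.

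The mice at the extremes differed between both sets of genes. R-Het 1 was the lowest of 6 mice for 22 of 25 mitotic genes, R-Het 3 was the lowest for 11 of 15 S phase genes, and R-WT 2 was the highest for 17 of 25 mitotic genes. Leaving out 1 mouse at a time kept the mitotic median between -0.39 and -0.24 and the S phase median between -0.19 and -0.02, with 8 to 15 mitotic genes at an unadjusted p under 0.05. The lowest count, 8, was reached without R-WT 2 and also without R-Het 1. Among males only, that is without R-WT 1, the mitotic median was -0.36 with 14 at an unadjusted p under 0.05, and the S phase median was -0.19. With the term for sex in 12 mice, the mitotic median was -0.26 and 4 had an unadjusted p under 0.05. That term was set by the control mice of both crosses, P-Ctrl 1 among them.

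Cell type markers differed here as well. Of the 14 osteoblast markers, 8 were below 0 and 6 above 0 in R-Het, with a median log2 fold change of -0.08. *Ibsp* (-0.81) and *Spp1* (-0.77) were the 2 with an unadjusted p under 0.05, and 0 passed the adjusted test. The osteoblast sums were 38220 to 44040 FPKM in R-WT and 26530 to 37440 FPKM in R-Het mice. All 10 skeletal muscle markers had a log2 fold change below 0 in R-Het, and 9 passed an adjusted p of 0.05, with sums of 1936, 1908 and 5625 FPKM in R-WT and 188, 148 and 25.6 FPKM in R-Het mice. Erythroid markers summed to 16870, 16930 and 15080 FPKM in R-WT and 7740, 15570 and 3892 FPKM in R-Het mice, with 7 of 8 tested below 0 and 1 past the test. Mean log2 levels of the mitotic genes were 2.90, 3.14 and 3.18 in R-Het mice 1, 2 and 3 and 3.28 to 3.48 in R-WT mice. All 7 osteoclast markers were below 0, of which 3 passed, with sums of 5128 to 6420 FPKM in R-WT and 3349 to 4178 FPKM in R-Het mice. The 5 endothelial markers were also all below 0, and 1 passed. Their sums were 93.6 to 101.1 FPKM in R-WT and 69.1 to 77.4 FPKM in R-Het mice. The 5 macrophage markers tested were below 0 too, with 0 past the adjusted test. Neutrophil markers, 6 of 6 below 0 with 4 at an unadjusted p under 0.05 and 0 past the adjusted test, summed to 297 to 459 FPKM in R-WT and 72.5 to 382 FPKM in R-Het mice. Myeloid progenitor markers summed to 3.13 to 4.78 FPKM in R-WT and 1.73 to 3.65 FPKM in R-Het mice, and *Prtn3*, the 1 tested, had -0.40 (adjusted p = 0.414). Cartilage markers were above 0 for 5 of 6 and neural markers for 5 of 7, each with 1 at an unadjusted p under 0.05 and 0 past the adjusted test. Of all tested genes, 8.32% were lower in R-Het at an unadjusted p under 0.05, and the adjusted test passed 1.49% lower and 0.398% higher. A log2 fold change below 0 was found for 43.9%. No share higher at an unadjusted p is given here, so the cartilage and neural counts at that threshold have none beside them. The part of these cells in the lower mitotic levels was not tested.

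The changes in the 2 crosses were then compared gene by gene, as the P-KO change minus the R-Het change in a fit of all 12 mice. All 15 S phase genes and all 25 mitotic genes had a difference above 0, against 55.7% of all tested genes, with medians of 0.54 and 0.58 on the log2 scale. Limma passed 0 of 40 at an adjusted p under 0.05, where 0.0613% of all genes passed above 0 and 0.0919% below. At an unadjusted p under 0.05, 7 S phase and 13 mitotic genes were above 0, against 11.1% of all tested genes. The smallest adjusted p-values were those of *Ccnb1* (difference 0.76, SE 0.18, adjusted p = 0.0791), *Rrm1* (0.71, SE 0.18, adjusted p = 0.0936) and *Prc1* (0.79, SE 0.20, adjusted p = 0.0944). The largest difference was that of *Top2a* (0.84, SE 0.22, adjusted p = 0.109). *Foxm1* had a difference of 0.01 (SE 0.23). By sign, 11 S phase and 24 mitotic genes were above 0 in P-KO and below 0 in R-Het, *Mcm2*, *Mcm4* and *Ccne2* were above 0 in both, and *Cdt1* and *Foxm1* were below 0 in both. Without P-Ctrl 1 the medians were 0.33 and 0.38, with only female controls left in the *Med23* cross.

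S phase and mitotic levels were not tied to each other in the same way in every mouse. The mean log2 level of the S phase genes minus that of the mitotic genes was 0.736, 0.770 and 0.625 in P-Ctrl mice 1, 2 and 3 and 0.774, 0.882 and 0.978 in P-KO mice 1, 2 and 3. P-Ctrl 1, with the lowest levels of both sets, had a balance within the range of the other controls, and P-KO 1 lay just above that range. The balance was 0.657, 0.569 and 0.725 in R-WT mice and 1.034, 0.970 and 0.541 in R-Het mice. R-Het 1 and R-Het 2 were above every R-WT mouse and R-Het 3 was below them, so these groups overlapped. Group means were 0.710 ± 0.076 in P-Ctrl, 0.878 ± 0.102 in P-KO, 0.651 ± 0.078 in R-WT and 0.848 ± 0.268 in R-Het (SD, n = 3 each). These are given as a description, with no test.

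**Figure D4:**
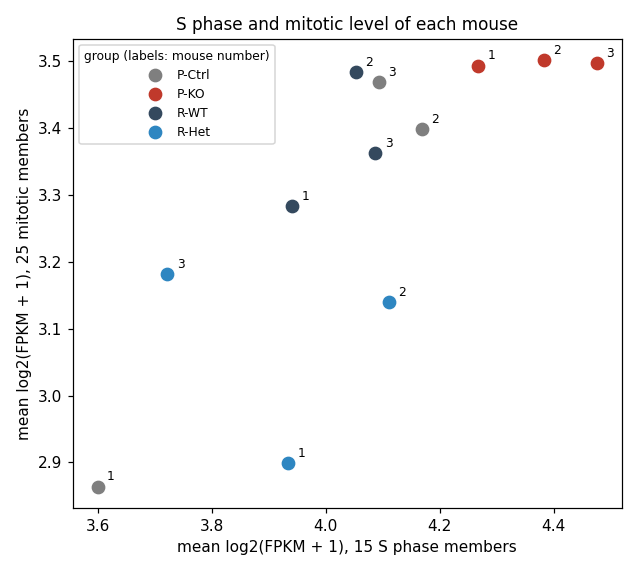
Mean log2(FPKM + 1) of the 15 S phase genes (horizontal axis) against that of the 25 mitotic genes (vertical axis), 1 point per mouse, coloured by group and labelled with the mouse number. P-KO mice share a mitotic level of about 3.50 and lie farthest to the right, R-Het mice lie below all R-WT mice, and P-Ctrl 1 is at the lower left.

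Other genes of the pathway were examined by lists of known components, chosen with earlier results of these data known. Of 41 other replication genes, 40 had a log2 fold change above 0 in P-KO, with a median of 0.35, and 22 were higher at an unadjusted p under 0.05, beside 61.3% and 15.7% of all tested genes. One passed the adjusted test. *Rpa3*, the small subunit of the protein that coats single-stranded DNA, was at 95.3, 111 and 121 FPKM in P-Ctrl and 159, 166 and 178 FPKM in P-KO mice, and rose by 0.62 (SE 0.11, limma adjusted p = 0.043). Without any 1 of the 6 mice, or with every mouse scaled to the same FPKM sum, it no longer passed. The same genes in R-Het had a median of -0.10, with 27 of 41 below 0, 6 lower at an unadjusted p under 0.05 and 0 past the adjusted test, beside 43.9% of all tested genes below 0 and 8.32% lower.

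Of 55 other mitotic genes, 54 were analysed here, of which 46 lay above 0 in P-KO (median 0.27, 10 higher at an unadjusted p under 0.05, against 15.7% of all tested genes, and 0 past the adjusted test). In R-Het, 50 of 54 lay below 0 (median -0.23, 19 lower at an unadjusted p under 0.05, 24 without overlap, 0 past the adjusted test), against 43.9%, 8.32% and 10.4% of all tested genes. The smallest p-values were those of the condensin subunit *Ncapg* (-0.49, adjusted p = 0.0669), the kinase *Melk* (-0.47, adjusted p = 0.0808) and *Cdca3* (-0.46, adjusted p = 0.089). *Ncapg* was at 5.75, 5.16 and 4.94 FPKM in R-WT and 3.07, 3.73 and 3.61 FPKM in R-Het mice, without overlap. Genes that control the step from G1 to S phase, such as the E2F factors, the RB family and D-type cyclins, had medians closer to 0 as a list. Of 26 tested, 21 were above 0 in P-KO (median 0.11) and 14 below 0 in R-Het (median -0.03), with 0 past the adjusted test in either cross, and 4 higher and 1 lower in P-KO and 2 higher in R-Het at an unadjusted p under 0.05. The 4 genes higher in P-KO were close to the background of 15.7%, and 61.3% of all genes lay above 0 in P-KO and 43.9% below 0 in R-Het. The 2 genes higher in R-Het were D-type cyclins, both without overlap. *Ccnd2* had 0.34 (SE 0.10, limma adjusted p = 0.133) and *Ccnd3* had 0.27 (SE 0.11, limma adjusted p = 0.262). No share of all genes higher in R-Het at an unadjusted p is given here.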

How the data were processed

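RNA-seq values of 12 mice were analysed, grouped by the deposited labels. The authors deposited FPKM per RefSeq transcript (30411 per mouse). Per the labels' processing notes, Bowtie 0.12.8 and mm10 were used. The program that made the values, its annotation version and its treatment of reads with several matches are not given in the sources used here. FPKM of a gene's transcripts were summed by symbol (23715 genes), and those reaching 1 FPKM in 3 or more mice (13059, all 40 members among them) were tested on log2(FPKM + 1), a scale that understates changes of low genes. Each mutant group was compared with its littermates by limma 3.58.1 (R 4.3.3) with a mean-variance trend and Benjamini-Hochberg adjustment over all tested genes. An interaction contrast compared crosses. The fits were checked on simulated data. The members, gene lists and tests were chosen with earlier results of these data known. By rule, values in every mouse are given for 8 set genes and for the 3 S phase and 3 mitotic members with the smallest p per comparison. Of the other pathway genes, those past the adjusted test are named, or else the 3 with the smallest p per comparison. No batches or dates are given in the labels. Alternatives were other scalings, filters, pseudocounts and fits, and leaving out each mouse.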

Additional observations from a re-analysis of the deposited data

Results flagged for a closer look

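In 7 members all 3 P-KO mice lay above all 3 P-Ctrl mice while all 3 R-Het mice lay below all 3 R-WT mice, which 113 of the 13059 tested genes (0.865%) also did. The P-KO change minus the R-Het change, on the log2 scale, was 0.51 for *Mcm7* (limma adjusted p = 0.127), 0.71 for *Rrm1* (0.0936), 0.76 for *Ccnb1* (0.0791) and 0.81 for *Cdk1* (0.139). It was 0.57 for *Bub1b* (0.214), 0.79 for *Ttk* (0.11) and 0.79 for *Prc1* (0.0944). None of the 7 passed an adjusted p of 0.05 in the test of the difference itself.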

How the results depend on the processing

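The medians kept their sign under every alternative run. Over alternatives that keep all mice they were 0.39 to 0.66 (S phase) and 0.15 to 0.43 (mitotic) in P-KO, and -0.12 to -0.04 and -0.36 to -0.26 in R-Het. The number of S phase genes higher in P-KO at an unadjusted p under 0.05 (11) was 6 with no filter, 4 with the same FPKM sum, the same 75th percentile or the same sum without muscle and erythroid genes, and 3 with the unmoderated test. For mitotic genes (6) it was 1, 0, 1, 0 and 0 in that order, and 12 with the sex term. In R-Het, the lower S phase genes (2) were 1 with 12 mice in 1 fit, the replicate block, the same sum, the same sum without muscle and erythroid genes, or the sex term, and the lower mitotic genes (14) were 9 with 12 mice in 1 fit or unmoderated and 4 with the sex term. At an adjusted p under 0.05, 2 S phase genes passed in P-KO with 12 mice in 1 fit (*Pcna* 0.0382, *Rrm1* 0.0447) and 1 mitotic gene in R-Het with the same 75th percentile. The 1 other pathway gene past the test in P-KO became 4 with 12 mice in 1 fit, 2 with the sex term, and 0 with no filter, the same sum, the same 75th percentile, the same sum without muscle and erythroid genes, unmoderated, or any mouse left out. Differences between crosses (7 S phase, 13 mitotic) were 3 and 8 with the same sum. The sex term turned *Foxm1* to 0.081 in P-KO and 0.0039 in R-Het, and *Pcna* to 0.0062 in R-Het. It rests on control mice alone, P-Ctrl 1 among them. Where none is named, the cause was not tested. Shares of all genes at an unadjusted p were given for the main fit only, so these counts cannot be set beside them.

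With 1 mouse left out in turn, medians were 0.28 to 0.57 and 0.07 to 0.38 in P-KO, -0.19 to -0.02 and -0.39 to -0.24 in R-Het, and 0.33 to 0.66 and 0.38 to 0.68 for the difference, S phase first. Members at an unadjusted p under 0.05 were 4 to 11 and 0 to 7, 1 to 3 and 8 to 15, and 5 to 10 and 9 to 17. Members on the main side of 0 were 13 to 14 and 17 to 24 in P-KO and 9 to 14 and 23 to 25 in R-Het. *Foxm1* ran from -0.26 to 0.12 in P-KO and -0.12 to 0.0099 in R-Het. Without P-KO 2, 0 mitotic genes of P-KO were higher at an unadjusted p under 0.05, and without P-KO 3, 4 S phase genes were.

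Mice share replicate numbers, and the main test did not take these numbers as pairs, since the labels name no litters. Deviations of same-numbered mice correlated across genes at 0.18, 0.259 and 0.0527 in the *Med23* cross and 0.00482, -0.0474 and -0.0836 in the *Runx2* cross. Every mouse of the *Med23* cross correlated best with its own number, which was not so in the *Runx2* cross. Whether the mice of the *Med23* cross were paired cannot be told from the labels. The replicate block gave 12 S phase and 6 mitotic genes in P-KO and 15 mitotic genes in R-Het at an unadjusted p under 0.05. Over all genes it called 181 higher and 92 lower in P-KO, against 132 and 73 without it. In R-Het it called 21 higher and 69 lower, against 52 and 195 without it. With no filter, 1 gene was called in P-KO (higher) and 2 higher and 3 lower in R-Het, with the unmoderated test 0 and 1. Low members such as *Cdc25c* rest on few fragments, which limits their precision.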
